A study of Mus musculus with 10 samples.

Results

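The regions described here are stretches of 4000 bp or more and under 16000 bp of mouse chromosomes 1 to 19 on which all 4 of the histone marks H4K5ac, H4K5bu, H4K8ac and H4K8bu were called in both round spermatids and spermatocytes. They were chosen by their measured island calls and merged length, not by the size of a fold. The enriched islands of the 8 deposited lists were merged wherever they overlapped by at least 1 bp, and merged regions were kept if they held at least 1 island of every list and lay within the length limits. There were 12369 such regions among 58242 merged regions, which is 21.2% of them. They made up 79.6% of the 15547 regions that all 8 lists covered, beside 1032 shorter and 2146 longer ones. They spanned 104 Mb of the 297 Mb of merged sequence, or 35.1%. Their median length was 7800 bp, with quartiles of 6000 and 10600 bp.

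The study was a chromatin immunoprecipitation and sequencing (ChIP-seq) experiment on mononucleosomes of fractionated male germ cells from the testis of mice of the strain labelled Oncins France 1. Round spermatids and spermatocytes were each represented by 1 library for H4K5ac, H4K5bu, H4K8ac and H4K8bu and by 1 input library, sequenced from nucleosomes that had not been precipitated. All antibodies were raised in rabbit, no genotype or treatment separated the stages, and the animals' age is not given in the sources used here. Cell purity of the fractions was not checked, because these lists hold no expression values of marker genes. Since every group had 1 library, replicate spread is unknown for every difference given here, and no test between groups was made.

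Histone H4 has a flexible tail whose lysines 5 and 8 can each carry an acyl group. Acetylation is the short and abundant form and is found at active promoters, while butyrylation places a longer chain on the same residue, so on 1 lysine of 1 histone the forms exclude each other. Spermatocytes are in meiosis, and round spermatids are the haploid cells that follow. In later spermatids most histones are removed from the chromatin, and the testis protein Brdt, which binds acetylated H4 tails through a bromodomain, is known to take part in that step.

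The enrichment of a region in a list is given as its fold over input. It is the sum of the deposited ChIP reads of the list's islands in the region divided by the sum of their input reads, times 1 constant per list, the deposited scaling for library size. The fold therefore covers the called islands and not the whole region. The lists held 4768412 to 9230541 ChIP reads inside islands, and the 12369 regions took 46.0% to 50.9% of them. The median region rested on 169 to 318 ChIP reads and 51 to 102 input reads, depending on the list. Intervals of the fold of a single region are exact conditional binomial intervals at 95% and cover counting error only. The labels name no molecular identifiers, so reads need not be separate molecules. The rule required every list to call a region, so the folds themselves are given as a description.

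With the deposited constants, H4K5ac stood highest over input in both stages. Scaled by the reads in all islands of each list, it was no longer above H4K5bu in round spermatids, where the median log2 ratio of H4K5bu to H4K5ac was 0.0017. That scaling gives every list the same summed fold over its islands, so a ratio nearer 0 is partly built in. In round spermatids the median fold of H4K5ac over the regions was 6.20 (quartiles 4.89 and 7.59). H4K5bu had 4.67 there, H4K8ac 3.43 and H4K8bu 4.22. In spermatocytes H4K5ac had 7.89 (quartiles 4.77 and 11), H4K5bu 4.83, H4K8ac 4.78 and H4K8bu 5.68. The regions were more alike in round spermatids than in spermatocytes for every mark. The distance between the quartiles on the log2 scale was 0.50 to 0.63 in the 4 round spermatid lists and 1.09 to 1.20 in the 4 spermatocyte lists.

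A region close to the medians of all members in fold and length, chr10:12724801-12731800 (mm9, 7000 bp), shows the values of a typical case. In round spermatids H4K5ac had a fold of 6.27 (interval 4.98 to 7.93), H4K5bu 5.03, H4K8ac 3.89 and H4K8bu 4.23. In spermatocytes H4K5ac had 7.91 (interval 6.19 to 10.2), H4K5bu 4.27, H4K8ac 4.74 and H4K8bu 5.99. H4K5bu was thus higher in round spermatids and the other 3 marks were lower there, each by less than 2-fold. The H4K5ac intervals of the 2 stages overlap. The region is typical in the level of its folds and not in these directions. H4K5bu alone was higher in 11.8% of members, and all 4 marks were lower in 46.6%. Each list had 1 island in it, and 3800 bp were covered by all 8 lists.

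The spermatocyte folds fell into a lower and a higher group of regions, and the round spermatid folds did not. Counted in bins of 0.25 on the log2 scale, each round spermatid list had 1 peak, which for H4K5ac was the bin of folds between 5.66 and 6.73 with 2628 regions. The spermatocyte H4K5ac list had a lower peak of 1214 regions at folds of 4 to 4.76 and a higher peak of 1704 regions at folds of 9.51 to 11.3. Between them, 995 regions lay in the bin from 5.66 to 6.73. The other 3 marks had the same shape in spermatocytes: the lower peak held 1170, 1221 and 1304 regions for H4K5bu, H4K8ac and H4K8bu, the trough 1002, 1059 and 1114, and the higher peak 1848, 1769 and 1760.

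**Figure D1:**
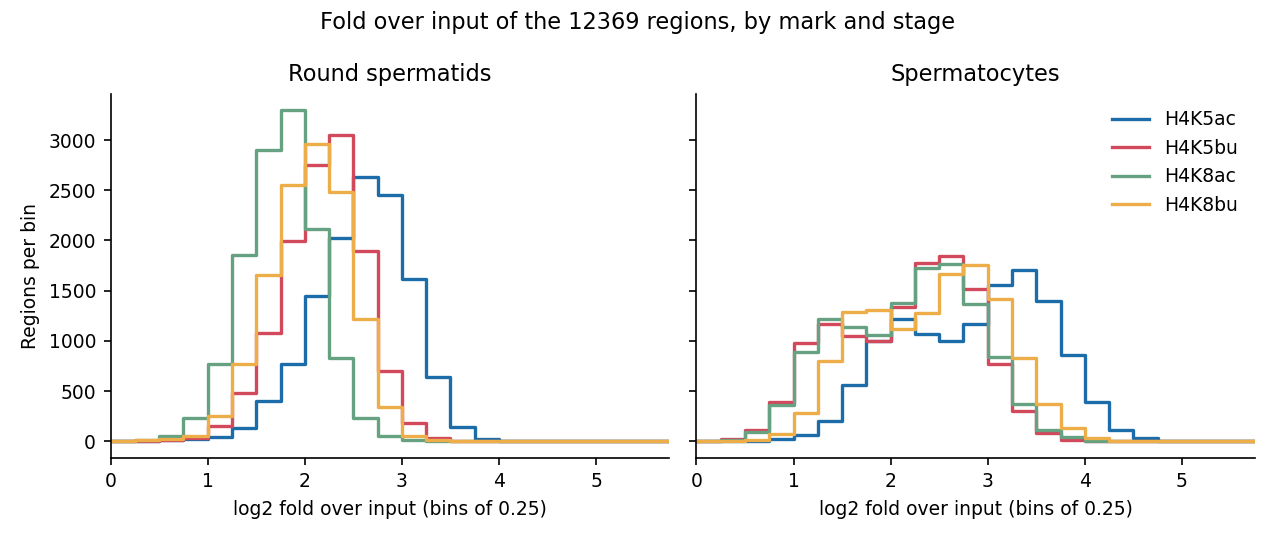
Number of regions (vertical axis) in bins of log2 fold over input (horizontal axis, bins of 0.25), 1 line per mark, for round spermatids on the left and spermatocytes on the right. Each round spermatid line has 1 peak, while each spermatocyte line has a lower and a higher one, which for H4K5ac hold 1214 and 1704 regions.

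The 2 peaks of the 4 spermatocyte lists were also present with bins of 0.2, and among regions with at least 50 input reads in the list. Neither part of the ratio showed them alone in every list: ChIP reads per kb of island had 2 peaks in spermatocytes for H4K5bu and 1 for the other marks, and input reads per kb had 1 peak in all 8 lists. By the same criterion the shorter regions, the longer regions and all regions called in a list each had 1 peak. The split is a description of these libraries, found after the values had been seen, and with 1 library per list a property of the cells and one of the libraries cannot be told apart.

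Dividing the regions at the middle of that trough, a spermatocyte H4K5ac fold of 6.17, put 7717 regions (62.4%) above and 4652 (37.6%) below. The other marks followed the same division in spermatocytes. Of the regions below it, 83.6% were also below the trough of H4K5bu, 83.3% below that of H4K8ac and 86.2% below that of H4K8bu. Of the regions above it, 4.19%, 4.44% and 4.59% were below the trough of those marks in the same order. In all, 3412 regions (27.6%) were below the trough of all 4 marks and 7006 (56.6%) below none. The 4 spermatocyte lists were called against the same input library, so an input count is shared by the 4 folds wherever their islands coincide. All 6619 islands with the same coordinates in 2 or more of these lists had the same input count.

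In round spermatids the 2 sets of regions were close together. The regions above the spermatocyte trough had a median round spermatid H4K5ac fold of 6.43, with 5.04 for H4K5bu, 3.61 at H4K8ac and 4.33 at H4K8bu. Those below it had 5.78, 4.07, 3.11 and 4.02 for the same marks. In spermatocytes the medians were 10.2, 5.98, 6.0 and 7.16 above the trough and 4.28, 2.69, 2.75 and 3.33 below it. The sets thus differed by at least 2-fold in their spermatocyte medians for each mark and by less than 1.5-fold in their round spermatid medians. Because the division was made on a spermatocyte fold, a wider gap in spermatocytes is partly built in. Across regions that log2 fold had Pearson correlations of 0.87 to 0.90 with the other spermatocyte marks, which share its input. With the round spermatid marks they were 0.23 to 0.45.

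**Figure D2:**
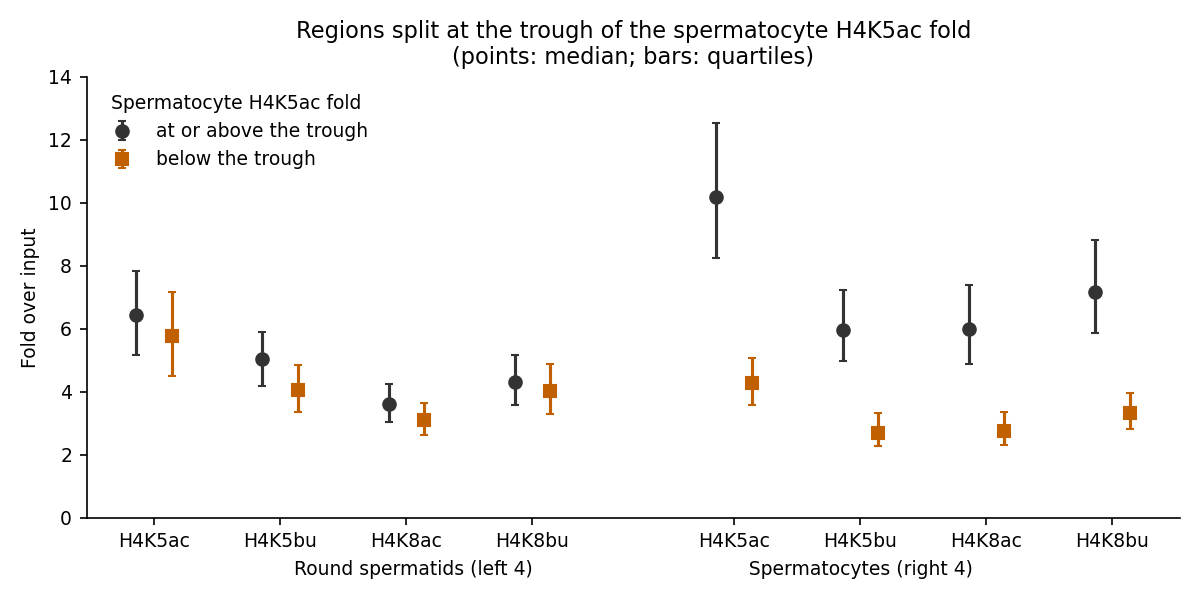
Median fold over input (points) and quartiles (bars) of the regions at or above (dark circles) and below (orange squares) a spermatocyte H4K5ac fold of 6.17, for the 4 round spermatid lists on the left and the 4 spermatocyte lists on the right. The round spermatid medians of H4K5ac lie at 6.43 and 5.78, and the spermatocyte medians, which the split fixes for that mark, at 10.2 and 4.28. For the other spermatocyte marks, which share the input, the gap is partly built in as well.

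Both read counts of the ratio differed between the sets in spermatocytes, which is partly built in because the division was made on that ratio. The H4K5ac islands of spermatocytes held a median of 70.8 ChIP reads per kb above the trough and 40.4 below it, and 11.7 and 16.3 input reads per kb. In round spermatids the H4K5ac islands held 47.3 ChIP reads per kb in the regions above the spermatocyte trough and 49.0 in those below, and 15.8 and 18.0 input reads per kb. The part of the input in the division was not tested. The median length was 8400 bp below the trough and 7600 bp above it. The round spermatid H4K5ac islands had a median of 6600 bp below it and 5600 bp above it, while the spermatocyte H4K5ac islands had a median of 4600 bp in both sets. The share of regions above the trough was 70.7% from 4000 bp, 63.2% from 6000 bp, 56.5% from 8000 bp and 60.4% from 12000 bp, each length class ending below the next.

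The islands of the marks reached over different shares of a region. In round spermatids the H4K5ac islands took a median of 78.3% of a region, those of H4K5bu 79.5%, those of H4K8ac 56.6% and those of H4K8bu 81.1%. In spermatocytes the medians were 61.4%, 67.7%, 52.0% and 66.7% for the same marks. H4K8ac thus had the shortest islands in both stages. The lists with the fewest ChIP reads inside islands were also the H4K8ac lists, with 4768412 in round spermatids and 5587630 in spermatocytes, and the part of depth in these lengths was not tested.

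The list that covered the most bases of a region was most often a round spermatid one. H4K8bu of round spermatids covered at least as many bases as every other list in 30.1% of regions, H4K5bu in 25.1% and H4K5ac in 21.3%. The H4K5bu list of spermatocytes did so in 18.1%. A tie was counted for each tied list, also for the narrowest. H4K8ac was narrowest in 32.6% of regions in its round spermatid list and in 40.3% in its spermatocyte list. For each mark the islands were longer in round spermatids than in spermatocytes in most regions. H4K5ac was longer there in 74.9%, H4K5bu in 62.6%, H4K8ac in 55.1% and H4K8bu in 69.3%. These shares are over the members only and depend on length. In regions of 4000 to 5800 bp the median H4K8ac length was 2600 bp in round spermatids and 3000 bp in spermatocytes. H4K5bu had 3600 bp in both stages there, H4K5ac 3600 and 3200 bp, and H4K8bu 3800 and 3400 bp. The span of the H4K8ac islands lay wholly inside that of the H4K8bu islands in 71.4% of regions in round spermatids and in 59.7% in spermatocytes.

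Most regions were simple in make-up. Depending on the list, 88.3% to 95% held a single island of it, and 8780 regions (71.0%) held 1 island of each of the 8 lists. The bases that all 8 lists covered, called the core here, had a median of 2800 bp, or 36.7% of the region (quartiles 27.3% and 46.2%). The core was 1 unbroken block in 87.4% of regions, and its centre lay a median of 700 bp from the centre of the region. In 175 regions (1.41%) the 8 lists met in 1 merged region without a base in common.

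Around the core the marks fell away at different distances. The width over which islands were present in at least 50% of the regions was 5600 bp for H4K5ac, H4K5bu and H4K8bu in round spermatids and 3800 bp for H4K8ac. In spermatocytes H4K5ac reached this share over 4200 bp, H4K5bu over 4800 bp, H4K8ac over 3600 bp and H4K8bu over 4600 bp. Those of H4K5ac, H4K5bu and H4K8bu were thus wider in round spermatids by this measure, and the H4K8ac widths were within 200 bp of each other.

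**Figure D3:**
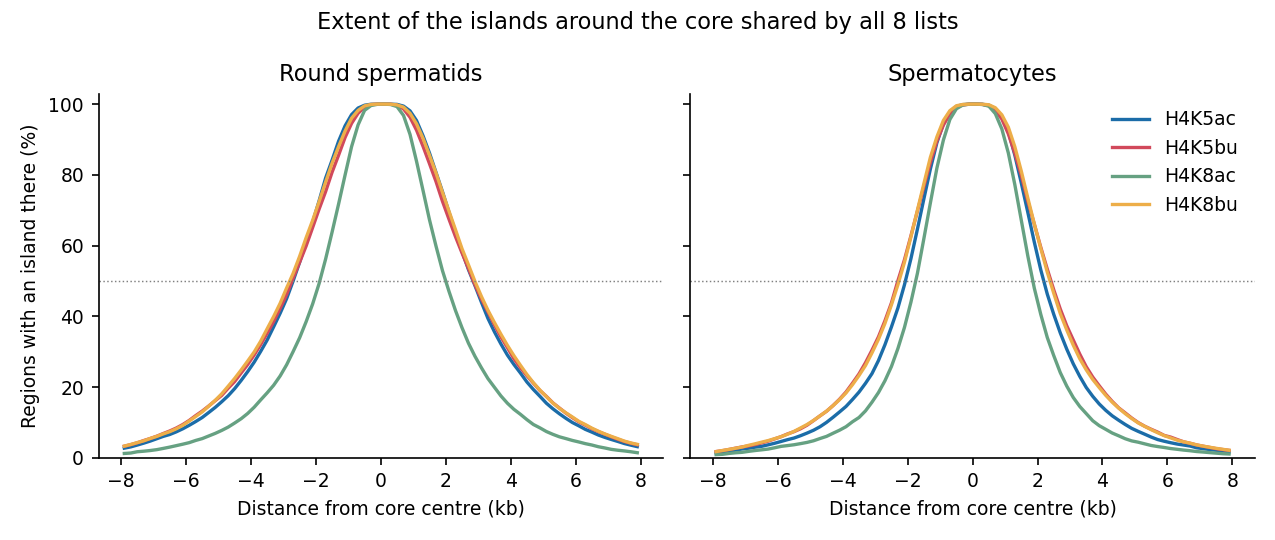
Percentage of the 12194 regions with a core that had an island of each mark (vertical axis) at each distance from the centre of the core in kb (horizontal axis), for round spermatids on the left and spermatocytes on the right. The dotted line marks 50%, which H4K8ac crosses nearest to the centre in both stages, with widths of 3800 bp and 3600 bp.

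The extremes of the core show what the merged length can hold. The region with the largest core share, chr2:163408001-163418200 (10200 bp), had 1 island of 9000 to 10000 bp in each list, and 86.3% of it was shared by all 8. In round spermatids H4K5ac had a fold of 5.86, H4K5bu 5.15, H4K8ac 2.83 and H4K8bu 4.47. In spermatocytes the folds were 7.02, 5.41, 3.97 and 5.44. All 4 marks were lower in round spermatids there, each by less than 1.5-fold. The region chr1:9835401-9845400 (10000 bp) had no core. Its islands covered 3400 to 5800 bp in the round spermatid lists and 7200 to 10000 bp in the spermatocyte lists. Its H4K5ac fold was 2.25 in round spermatids (interval 1.72 to 2.95) and 6.74 in spermatocytes (interval 5.47 to 8.36).

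Between the stages, fold was lower in round spermatids than in spermatocytes at the median region for 3 marks and near equal for H4K5bu. The median log2 difference, round spermatids minus spermatocytes, was -0.36 at H4K5ac, -0.035 at H4K5bu, -0.46 at H4K8ac and -0.43 at H4K8bu. Over all merged regions with islands of the mark in both stages, the members included, it was -0.25, -0.092, -0.43 and -0.28 for the same marks. The members were thus 0.11 and 0.15 lower than all regions for H4K5ac and H4K8bu on this scale, and 0.056 higher for H4K5bu.

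Differences of at least 2-fold were read against the share among all regions called for the mark in both stages. H4K5ac was at least 2-fold higher in round spermatids in 551 members (4.45%, against 5.01% of all regions) and at least 2-fold lower in 2253 (18.2%, against 18.3%). H4K5bu was at least 2-fold higher in 922 (7.45%, against 5.74%) and at least 2-fold lower in 491 (3.97%, against 6.52%). H4K8ac was at least 2-fold higher in 127 (1.03%, against 0.98%) and at least 2-fold lower in 2422 (19.6%, against 18.6%). H4K8bu was at least 2-fold higher in 186 (1.5%, against 2.1%) and at least 2-fold lower in 2532 (20.5%, against 17.7%). The 12369 members are themselves among these regions and make up most of the 16834 for H4K8ac, so a share near the background is partly built in. In the 3178 other regions with all 8 lists, H4K5ac was at least 2-fold higher in 1.6% and at least 2-fold lower in 15.1%. There H4K5bu had 2.96% higher and 4.66% lower, H4K8ac 0.315% and 16.5%, and H4K8bu 0.409% and 16.3%. The members thus had larger shares at least 2-fold higher than these others. The others pool shorter and longer regions, and the members' shares at least 2-fold lower lay between those of the shorter and the longer ones. For H4K5ac, H4K5bu, H4K8ac and H4K8bu the shares lower were 38.0%, 12.8%, 36.7% and 41.9% in the shorter regions. In the longer ones they were 4.05%, 0.746%, 6.80% and 3.96%. Counting every region with a higher fold in round spermatids, whatever its size, gave 35.2% for H4K5ac (all regions 39.8%). For H4K5bu this share was 47.7% (44.3%), for H4K8ac it was 28.2% (28.4%) and for H4K8bu 31.5% (37.6%).

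The excess of lower over higher regions depended on the scaling of the lists. Scaled by the reads in all islands of each list in place of the deposited constant, the differences between stages shifted on the log2 scale by 0.23 (H4K5ac), 0.062 (H4K5bu), 0.42 (H4K8ac) and 0.32 (H4K8bu). The share of higher regions among those past 2-fold was 51.2% for H4K5ac under that scaling and 19.7% with the deposited constants. For H4K5bu it was 75.7% and 65.3%, for H4K8ac 56.7% and 4.98%, and for H4K8bu 45.3% and 6.84%. Regions past 2-fold were mostly lower with the deposited constants for H4K5ac and H4K8ac. Under the other scaling H4K5ac was near an even split, with 1283 higher and 1224 lower, and H4K8ac had 920 higher and 703 lower. For H4K8bu more regions were still lower than higher, with 896 higher and 1081 lower. That scaling sets the summed fold over all islands to the same value in every list. The members held 46.0% to 50.9% of the ChIP reads in islands, so splits nearer to even are partly built in. A direction common to a whole list cannot be told apart from its scaling in these data. Differences between regions of the same lists do not change with it.

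Shorter regions had the lower round spermatid over spermatocyte ratio, in all 4 marks. The median log2 difference of H4K5ac was -0.65 from 4000 bp to below 6000 bp, -0.46 from there to below 8000 bp, -0.18 from there to below 12000 bp and -0.11 in the longest class. H4K5bu went across 0 over the same classes, with -0.24, -0.097, 0.094 and 0.13. H4K8ac had -0.66, -0.52, -0.32 and -0.31, and H4K8bu -0.69, -0.52, -0.27 and -0.19. Regions under 4000 bp had lower medians than these classes in each mark, with -0.77, -0.40, -0.81 and -0.85 for H4K5ac, H4K5bu, H4K8ac and H4K8bu. Those of 16000 bp or more had -0.057, 0.13, -0.28 and -0.16, higher than the longest class except for H4K5bu, which was 0.13 in both.

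Up to the third class the round spermatid medians were higher and the spermatocyte medians lower with each step of length. In the longest class the medians of both stages were above those of the third. The median round spermatid fold of H4K5ac was 5.69, 5.98, 6.45 and 6.78 from the shortest to the longest class. The median spermatocyte fold of H4K5ac was 9.05, 8.22, 7.12 and 7.28. H4K5bu had 4.45, 4.59, 4.73 and 4.88 in round spermatids and 5.45, 4.93, 4.43 and 4.49 in spermatocytes. Over all members the round spermatid islands were also the longer ones in most regions. In the shortest class this did not hold for the medians of H4K5bu and H4K8ac. The part of island length in the order was not tested. Values just inside and just outside the length limits are given as a description. The 254 regions of 4000 bp, just inside, had median H4K5ac folds of 5.40 in round spermatids and 9.12 in spermatocytes, and the 210 of 3800 bp, just outside, had 5.39 and 9.88. The 80 regions that ended 200 bp under the upper limit had 6.69 and 6.66, and the 62 of 16000 bp had 6.09 and 6.83.

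**Figure D4:**
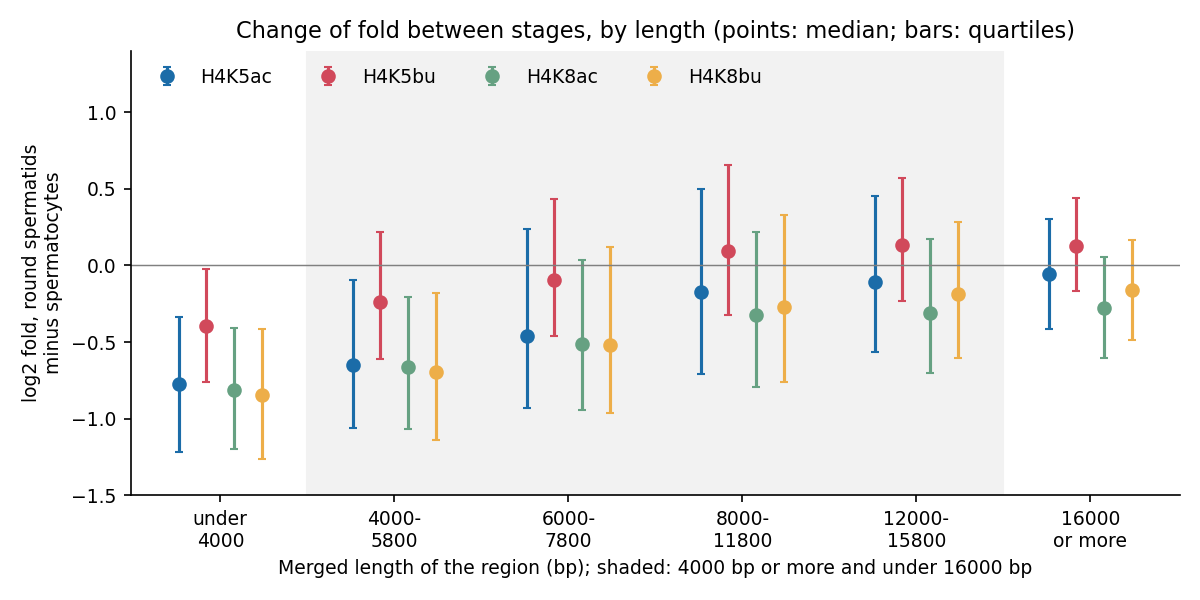
Median log2 fold difference, round spermatids minus spermatocytes (points, with quartiles as bars), by merged length of the region in bp and by mark, with the lengths described here shaded. The H4K5ac median goes through -0.65, -0.46, -0.18 and -0.11 across the shaded classes, and H4K5bu lies above the other marks in every class.

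The 4 marks tended to differ between the stages in the same direction within a region. All 4 were lower in round spermatids in 5767 members (46.6%, against 46.4% of the 15547 regions with all 8 lists) and all 4 higher in 2744 (22.2%, against 21.2%). H4K5bu alone was higher in 1463 (11.8%, against 12.1%), which made it the most frequent of the mixed patterns. All 4 were at least 2-fold lower in 231 (1.87%, against 2.08%) and at least 2-fold higher in 29 (0.234%, against 0.206%), and no mark passed 2-fold in 7072 (57.2%, against 59.8%). Because the members are most of those 15547 regions, they are also set beside the 3178 others. Of these, 45.5% had all 4 marks lower, 17.3% had all 4 higher and 70.1% had no mark past 2-fold. The marks of a stage share an input library, and with it part of any difference in common.

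Across the 12369 regions, log2 folds of different marks in the same stage had Pearson correlations of 0.68 to 0.79 over the 6 pairs of round spermatid lists and 0.86 to 0.90 over the 6 pairs of spermatocyte lists. Over the 16 pairs with 1 list of each stage they were 0.18 to 0.45. These are descriptions across regions, the lists of a stage share their input, and regions are not replicates.

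The direction followed the spermatocyte division closely, as part of it must, since the spermatocyte fold is the denominator. Above the trough, the median log2 difference was -0.71 at H4K5ac, -0.27 at H4K5bu, -0.74 at H4K8ac and -0.74 at H4K8bu. Below it, the medians were 0.49, 0.61, 0.20 and 0.32. All 4 marks were lower in round spermatids in 68.5% of the regions above and in 10.4% of those below. All 4 were higher in 1.70% of the regions above and in 56.2% of those below.

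The region with the highest mean fold had lower folds of all 4 marks in round spermatids. This was chr10:20670001-20675400 (5400 bp), with the mean taken as log2 over the 8 lists. Its H4K5ac fold was 10.1 in round spermatids (interval 7.12 to 14.5, from 190 ChIP and 40 input reads) and 45.9 in spermatocytes (interval 27.0 to 84.8, from 381 ChIP and 14 input reads). The H4K5ac islands had the same length in both stages, 4000 bp. The round spermatid over spermatocyte ratio was 0.219 at H4K5ac, 0.375 at H4K5bu, 0.236 at H4K8ac and 0.203 at H4K8bu. So the 4 marks were lower together, H4K5bu least, but the lists of a stage share their input and the 4 ratios are not separate observations.

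Among regions with at least 100 ChIP and 20 input reads in both lists of the mark, the lowest ratio of round spermatid to spermatocyte fold of H4K5ac was 0.144, at chr4:116974001-116978800 (4800 bp). The H4K5ac fold there was 3.51 in round spermatids (interval 2.55 to 4.86) and 24.3 in spermatocytes (interval 15.6 to 39.8). Its islands held 106 ChIP and 64 input reads in round spermatids, against 302 and 21 in spermatocytes. The H4K5bu, H4K8ac and H4K8bu folds were 2.24, 2.03 and 2.68 in round spermatids, against 7.81, 7.07 and 10.9 in spermatocytes. All 4 marks were at least 3-fold lower in round spermatids, and more input reads entered the round spermatid folds.

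With the same minimum of reads, here and for the ratios that follow, the second lowest ratio of H4K8bu was 0.180, at chr4:127840601-127846000 (5400 bp). Its H4K8bu fold was 2.59 in round spermatids (interval 1.91 to 3.54) and 14.4 in spermatocytes (interval 10.5 to 20.2). H4K5ac had 3.72 and 19.9, H4K5bu 3.97 and 8.78, and H4K8ac 3.27 and 9.53 in round spermatids and spermatocytes. At chr7:52890401-52896200 (5800 bp), chosen for H4K5bu, that mark had a fold of 1.92 in round spermatids (interval 1.43 to 2.59) and 7.26 in spermatocytes (interval 4.77 to 11.5). The other 3 marks had ratios of 0.277 to 0.425 at that region, so all 4 were lower. The spermatocyte islands held only 25 or 26 input reads in each list, from the same input library. The 4 ratios are therefore not separate observations.

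Other regions had higher folds in round spermatids. At chr4:71546201-71552400 (6200 bp), which had the second highest ratio of H4K5ac, its fold was 15.0 in round spermatids (interval 11.2 to 20.5) and 4.34 in spermatocytes (interval 3.28 to 5.81), from islands of 4200 bp in each. H4K5bu had 6.89 in round spermatids and 2.23 in spermatocytes, H4K8ac 5.18 and 2.94, and H4K8bu 8.29 and 3.76. The ratio was thus 3.46 at H4K5ac, 3.09 at H4K5bu, 1.76 at H4K8ac and 2.2 at H4K8bu.

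At chr5:45356601-45368000 (11400 bp) all 4 marks were at least 2-fold higher. H4K8ac, for which this region had the second highest ratio, had a fold of 4.61 in round spermatids (interval 3.79 to 5.63) and 1.68 in spermatocytes (interval 1.30 to 2.19). H4K5ac had 8.27 and 2.65, H4K5bu 5.11 and 2.04, and H4K8bu 6.18 and 2.77 in round spermatids and spermatocytes. The islands were longer in round spermatids in each mark, for example 8200 bp against 5000 bp for H4K8ac. Among all members, whatever the reads, the highest ratio of H4K8ac was 3.32, at chr18:18519001-18524200, where the other marks had ratios of 3.59 to 3.76. With the minimum of reads the highest was 2.86, at chr9:71724801-71739000 (14200 bp), where the marks did not go together. H4K8ac had a fold of 5.62 in round spermatids (interval 3.66 to 8.92) over 2000 bp and 1.96 in spermatocytes (interval 1.62 to 2.38) over 10600 bp. H4K5ac had 3.40 over 9600 bp in round spermatids and 5.19 over 2000 bp in spermatocytes, a ratio of 0.654, and H4K5bu and H4K8bu had ratios of 1.48 and 1.32. The region chr8:15590001-15594000, at 4000 bp among the shortest members and with the second highest ratio of H4K8bu, was higher in all 4 marks. Its H4K8bu fold was 5.56 in round spermatids (interval 4.01 to 7.85) and 1.83 in spermatocytes (interval 1.34 to 2.50), and the ratios of the other marks were 3.19, 2.76 and 2.38 for H4K5ac, H4K5bu and H4K8ac.

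The balance of butyrylation to acetylation was taken as the log2 of the butyryl fold over the acetyl fold at the same lysine. Because the lists of different antibodies have different constants and may differ in efficiency, its absolute value is not a ratio of molecules, and comparisons are between stages and between regions. At lysine 5 the median balance was -0.41 in round spermatids and -0.70 in spermatocytes. The median difference between the stages, region by region, was 0.28, the same as over all regions called in the 4 lists. The round spermatid balance was above the spermatocyte balance in 76.7% of members (all regions 76.4%). It was at least 2-fold higher in 891 members (7.20%, against 7.63%), and it was at least 2-fold lower in 36 (0.291%, against 0.316%). These shares lie near the background, of which the members are a part. In the 3178 other regions with all 8 lists they were 3.71% and 0.252%.

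At lysine 8 the balance differed little between the stages. Its median was 0.33 in round spermatids and 0.29 in spermatocytes, with a median difference of 0.047. The round spermatid balance exceeded the spermatocyte balance in 54.7% of members (all regions 56%). It was at least 2-fold higher in 221 (1.79%, against 1.73%) and at least 2-fold lower in 245 (1.98%, against 1.75%). Scaled by the reads in islands, the median difference of the balance was 0.11 at lysine 5 and -0.052 at lysine 8, so the direction at lysine 8 turned with the scaling. As above, smaller differences are partly built into that scaling.

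Within a stage the butyryl fold was at least 2-fold above the acetyl fold at lysine 5 in 3 members in round spermatids (0.0243%, against 0.115% of all regions called in both lists) and in 1 in spermatocytes (0.00808%, against 0.032%). It was at least 2-fold below it in 303 in round spermatids (2.45%, against 2.19%) and in 2271 in spermatocytes (18.4%, against 15.2%). Counted whatever the size, it was above the acetyl fold in 9.89% of members in round spermatids (all regions 13%) and in 2.26% in spermatocytes (5.9%). With the deposited constants the order was the other way round at lysine 8. There the butyryl fold was above the acetyl fold in 84.4% of members in round spermatids (all regions 84.5%) and in 79.6% in spermatocytes (75.4%). It was at least 2-fold above in 67 in round spermatids (0.542%, against 0.746%) and in 177 in spermatocytes (1.43%, against 1.8%), and at least 2-fold below in 21 (0.170%, against 0.142%) and 40 (0.323%, against 0.459%). These counts rest on the constants. Scaling by the reads in islands gives every list the same summed fold, so balances nearer 0 are partly built into it. Scaled by the reads in islands, the median balance was 0.0017 in round spermatids and -0.12 in spermatocytes at lysine 5, and 0.016 and 0.073 at lysine 8. At lysine 5 in round spermatids it was thus near 0, without a clear sign.

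The stage difference of the balance changed with length at both lysines, in opposite directions. At lysine 5 its median was 0.35, 0.31, 0.25 and 0.22 from the shortest to the longest class of members. At lysine 8 it was -0.0072, 0.028, 0.063 and 0.091. The order at lysine 5 came from round spermatids, where the balance had medians of -0.36, -0.38, -0.43 and -0.47, while that of spermatocytes was -0.70 in each class. The division of the regions by spermatocyte H4K5ac fold showed the same contrast. The median difference of the balance was 0.40 above the trough and 0.11 below it at lysine 5, and -0.0036 and 0.11 at lysine 8. The lysine 5 values contain the fold that made the division, so they are a description, and the lysine 8 values do not contain it but share the input.

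**Figure D5:**
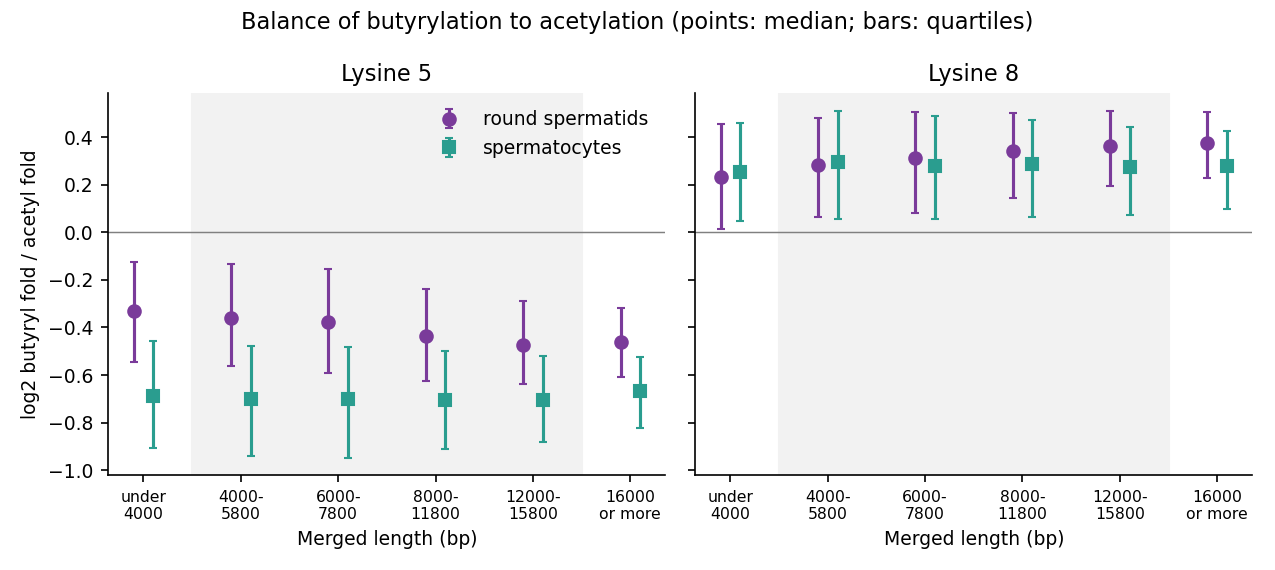
Median log2 ratio of butyryl to acetyl fold (points, with quartiles as bars) by merged length of the region in bp, for lysine 5 on the left and lysine 8 on the right, with round spermatids as purple circles and spermatocytes as teal squares. At lysine 5 the round spermatid medians lie above the spermatocyte medians in each class, and at lysine 8 they lie within 0.1 of each other.

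The regions with the most extreme balances that are given here had islands of unequal length. At chr9:59135201-59144800 (9600 bp) the lysine 5 balance was -0.02 in round spermatids and -2.47 in spermatocytes. In round spermatids H4K5bu had a fold of 4.32 over 6200 bp and H4K5ac 4.37 over 8200 bp. In spermatocytes H4K5bu had a fold of 4.77 over 7600 bp and H4K5ac 26.4 over 3400 bp. The spermatocyte H4K5ac island with the large fold was shorter than that of H4K5bu by more than 2-fold, and the fold rested on 23 input reads.

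The opposite case at lysine 5, with the second largest difference in that direction among regions with at least 100 ChIP and 20 input reads per list, was chr4:132886401-132899400 (13000 bp), with a balance of -0.91 in round spermatids and 0.71 in spermatocytes. In round spermatids H4K5bu had a fold of 4.12 over 10000 bp and H4K5ac 7.76 over 4400 bp. In spermatocytes H4K5bu had 9.57 over 5000 bp and H4K5ac 5.84 over 12000 bp. In each stage of this region the mark with the longer islands had the lower fold.

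The lysine 8 examples had the same feature. At chr16:57546201-57555400 (9200 bp) its balance was 1.48 in round spermatids and -0.38 in spermatocytes. In round spermatids H4K8bu had a fold of 6.33 over 3200 bp and H4K8ac 2.28 over 5400 bp. In spermatocytes H4K8bu had 3.76 over 7800 bp and H4K8ac 4.89 over 4800 bp. At chr2:156211001-156221600 (10600 bp) the balance was -0.63 in round spermatids and 1.49 in spermatocytes. There H4K8ac covered 3200 bp in round spermatids and 10000 bp in spermatocytes, and H4K8bu 9200 bp and 4000 bp. These examples were picked for their extremes and do not stand for the members. Over all 12369 regions, the log2 ratio of island length between stages was at most weakly correlated with the log2 fold difference of the same mark. The Pearson values were 0.092, 0.19, 0.096 and 0.020 for H4K5ac, H4K5bu, H4K8ac and H4K8bu. All are positive, unlike these examples, where the longer islands had the lower fold. They compare a mark between stages, not butyryl with acetyl islands, and so do not bear on the balances directly. The part of island length in the balances was not tested. Where every list had 1 island in the region, and the 4 islands compared overlapped by at least 80%, the median difference of the balance was 0.24 at lysine 5 (429 regions) and 0.070 at lysine 8 (284 regions).

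A few members had low folds on dense input. The lowest mean log2 fold belonged to chr10:21858001-21864400 (6400 bp), where H4K8ac had a fold of 1.16 in round spermatids (interval 0.980 to 1.37, from 260 ChIP and 318 input reads) and 1.23 in spermatocytes (interval 1.06 to 1.42, from 381 ChIP and 386 input reads). The round spermatid interval includes 1. At chr17:39979801-39993800 (14000 bp), which had no core, H4K5ac had 1343 ChIP and 2109 input reads in round spermatids and 1913 ChIP and 1460 input reads in spermatocytes. Its H4K5ac fold was 1.35 in round spermatids (interval 1.26 to 1.44) and 2.21 in spermatocytes (interval 2.07 to 2.37). In round spermatids its H4K5bu islands held only 116 input reads over 6000 bp. The 6 members with more than 50 input reads per kb in all 8 lists include chr10:21858001-21864400 but not chr17:39979801-39993800, and their median folds ranged from 1.49 to 2.33 over the lists. How reads that map to several places were counted is not given in the sources used here, and folds at dense input are uncertain.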

How the data were processed

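The members, lists and descriptions were chosen with earlier results of these data known, and the division at the trough, the bins of 0.2 and the minimum of 50 input reads were chosen after seeing the data. Per the submitters' processing notes, the tools were CASAVA 1.8.2, Bowtie2 2.2.5, deepTools 1.5.11 and SICER, and the build was mm9. Not given in the sources used here are their settings, the version of SICER and how duplicates and reads mapping to several places were treated. Deposited by the authors was 1 list of islands per immunoprecipitated library, with the ChIP read count, the input read count, a p-value, a fold (a ratio of ChIP to input) and a q-value per island. Islands had been kept at q-values below 0.01, with edges at multiples of 200 bp and gaps of 800 bp or more within a list. Input libraries entered only through these counts. The deposited fold was the ratio of the counts times 1 constant per list, 1.18 to 2.12, which was used as deposited.

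Islands on chromosomes 1 to 19 were merged at an overlap of at least 1 bp with Python 3.11.15, numpy 2.4.6 and pandas 2.3.3. Counts were summed per region and list, intervals came from scipy 1.17.1, and figures from matplotlib 3.10.9. The code was tested on simulated data. A peak of a histogram was counted as separate where the trough between peaks lay more than 5% of the tallest bin below the lower one. The alternatives tried kept the upper 50% of the islands of a list by fold, at least 50% of the region covered by each list, at least 20 input reads in each list, scaling by the reads in islands, and 1 island per list overlapping by at least 80%. Regions named in the text are those with the highest and lowest mean fold, the 2 most extreme stage ratios per mark and direction (at least 100 ChIP and 20 input reads), the 2 most extreme differences of balance per lysine and direction and the most extreme balances per stage, the largest and smallest core shares, the most ChIP reads and the closest to all medians. Those needed were printed. Positions are mm9, counted from 1. The gene table used here was for another build, so genes and promoters in the regions were not analysed here.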

Additional observations from a re-analysis of the deposited data

How the results depend on the processing

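Restricting each list to its upper 50% by fold left 4649 regions, and requiring each list to cover at least 50% of the region left 3682. With the upper 50% by fold, the median stage differences were -0.60, -0.21, -0.67 and -0.65 for H4K5ac, H4K5bu, H4K8ac and H4K8bu. At least 2-fold higher were 0.0215% of regions for each mark, and at least 2-fold lower 20.5%, 3.20%, 22.3% and 23.2%. This setting selects on the fold itself, in the spermatocyte lists too, and so drops regions with low spermatocyte folds. The small share of higher regions and the lower medians are thus partly built in. The balance was -0.38 in round spermatids and -0.74 in spermatocytes at lysine 5 (difference 0.37) and 0.29 and 0.28 at lysine 8 (difference 0.0104), and the core share was 40.4%. With 50% coverage, H4K5bu had a median of -0.063 and H4K8ac of -0.50. Shares at least 2-fold higher were 8.04% for H4K5bu and 0.733% for H4K8ac, and shares lower were 15.0%, 3.42%, 17.8% and 18.7%. The lysine 5 balance in round spermatids was -0.44 and its difference 0.26, lysine 8 had 0.41 and 0.36 in round spermatids and spermatocytes, and the core share was 51.7%.

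With at least 20 input reads in each list, the medians were -0.33, -0.021, -0.44 and -0.41, the shares lower 17.2%, 3.54%, 18.4% and 19.5%, the lysine 8 balance in round spermatids 0.33 and the core share 37.5%. With scaling by the reads in islands, the H4K5bu median turned to 0.027, and H4K5ac, H4K8ac and H4K8bu had -0.13, -0.044 and -0.11. This setting gives every list the same summed fold over its islands, so values nearer 0 are partly built in. Shares higher were 10.4%, 9.27%, 7.44% and 7.24%, and shares lower 9.90%, 2.98%, 5.68% and 8.74%. Under that scaling the lysine 5 balance was 0.0017 in round spermatids, near 0 and without a clear sign, and -0.12 in spermatocytes (difference 0.11). The lysine 8 balance was 0.016 and 0.073, and its difference reversed to -0.052. With 1 island per list overlapping by at least 80%, the medians were -0.44, -0.13, -0.55 and -0.46. H4K5ac was higher in 6.21% and H4K8bu in 2.88%, and H4K5bu was lower in 4.40%, H4K8ac in 21.7% and H4K8bu in 19.3%. The lysine 5 balance in spermatocytes was -0.66 (difference 0.24), and lysine 8 had 0.49 in round spermatids and 0.40 in spermatocytes (difference 0.0696). The causes were not tested, apart from the fewer regions or other constants that each setting uses.

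No paired analysis was possible because each group had 1 library. Depth limits single regions: with a median of 51 input reads in the sparsest list, a fold is known only within its interval.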

Other observations

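Of the 24051 merged regions within the same length limits, 51.4% were covered by all 8 lists. Another 2511 were covered by exactly 7, and the list they lacked was most often an H4K8ac list. The round spermatid H4K8ac list was the missing one in 1067 regions and the spermatocyte H4K8ac list in 746. The spermatocyte H4K5bu list was missing in 533, the round spermatid H4K8bu list in 96, and each of the other 4 lists in 8 to 23. A region without an island is uncalled for that mark, which is not a measured absence.

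The regions were spread over all 19 autosomes. They made up 17.8% of the merged regions on chromosome 6 and 24.8% on chromosome 11, the lowest and the highest share, and these chromosomes also had the lowest and highest density, 3.86 and 6.89 regions per Mb. The median gap to the next region of the set was 75800 bp, against 19000 bp between neighbouring merged regions of any kind, and 11.4% of gaps were within 10000 bp, against 33.0%. Since the set is 21.2% of the merged regions, wider gaps follow from its size and are no finding about its spacing. The median H4K5ac difference between stages ran from -0.51 on chromosome 19 to -0.16 on chromosome 16, and that of H4K5bu from -0.18 on chromosome 19 to 0.11 on chromosome 13. The median difference of the lysine 5 balance was above 0 on every autosome, between 0.23 on chromosome 16 and 0.36 on chromosome 9.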
